A study of Mus musculus with 6 samples.

Results

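The 10 genes described here are markers of the rarer granulocytes: eosinophils, basophils and mast cells. They were chosen by name, as genes known to mark these cells, but with earlier results of these data known. All 10 were found among the 37991 gene identifiers of the count table. Prg2, Epx, Ear1, Ear2 and Ear6 encode eosinophil granule proteins. Mcpt8 and Prss34 encode proteases of basophils, Cpa3 a protease of mast cells and basophils, and Fcer1a and Ms4a2 the alpha and beta chains of the high-affinity IgE receptor. RNA was sequenced from bone endothelial cells (BECs) freshly isolated from the tibia of 12-week-old c57/Bl6 mice, in 3 female and 3 male libraries, to compare the sexes. No group carried a transgene or received a treatment. The cells were purified by their endomucin, a surface protein of bone vessels, so none of the 10 genes belonged to the cell type that was sought. The labels do not say whether each library came from 1 mouse or from pooled mice, so p-values measure the spread between these libraries, which may be technical, and the libraries sequenced were those with the best RNA quality.

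Eosinophils, basophils and mast cells all arise in the bone marrow. Eosinophils fill their granules with cationic proteins that are released onto parasites and into inflamed tissue. Basophils and mast cells bind IgE on their surface, and antigen that cross-links the bound IgE releases histamine, proteases and cytokines. Eosinophils and basophils leave the marrow mature, whereas mast cells mature in the tissues. There they store tryptases and chymases that basophils largely lack, although basophils do make the tryptase encoded by Prss34.

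All 10 genes had reads in every library, from 64 to 176 counts for Ear6, and all 10 passed the filter on low counts. Library totals ran from 47678806 to 58325745 counts, so that 3 counts, the limit that a count of 0 allows, corresponded to 0.0514 to 0.0629 CPM, the unit in which counts are scaled by library size. Such limits cover counting error only. No pair of libraries agreed within sampling noise (chi-square per degree of freedom 31.5 or more). CPM below are scaled by TMM, a correction for composition that leaves the median gene at a log2 fold change of 0.00. All 12 endothelial markers examined were detected, with summed levels of 333 to 459 CPM in females and 194 to 289 CPM in males. Neutrophil markers summed to 19156 to 23457 CPM in females and 32828 to 44518 CPM in males.

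Per kilobase of exon, Ear2 and Prg2 stood at the top of the 10 genes, and the IgE receptor beta chain Ms4a2 at the bottom. Ear2 averaged 63.7 CPM per kb over the 6 libraries (48.2 to 80.9) and Prg2 averaged 59.2 CPM per kb (33.5 to 81.1). The basophil proteases Mcpt8 and Prss34 followed, at 29.4 (24.8 to 34.4) and 28.9 CPM per kb (23.7 to 37.7). Each of these 4 genes overlapped its neighbours in the order, and Ear1, at 9.70 CPM per kb (5.92 to 13.4), lay below all of them in every library. Fcer1a averaged 3.72 CPM per kb (3.01 to 4.80) and Cpa3 averaged 2.97 CPM per kb (2.44 to 3.62). Ear6 averaged 2.18 CPM per kb (1.29 to 3.97), Epx 2.15 CPM per kb (0.868 to 3.82) and Ms4a2 1.4 CPM per kb (1.21 to 1.75). These last 5 genes also overlapped from neighbour to neighbour, so the order of neighbours was not resolved beyond the spread between libraries.

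**Figure D1:**
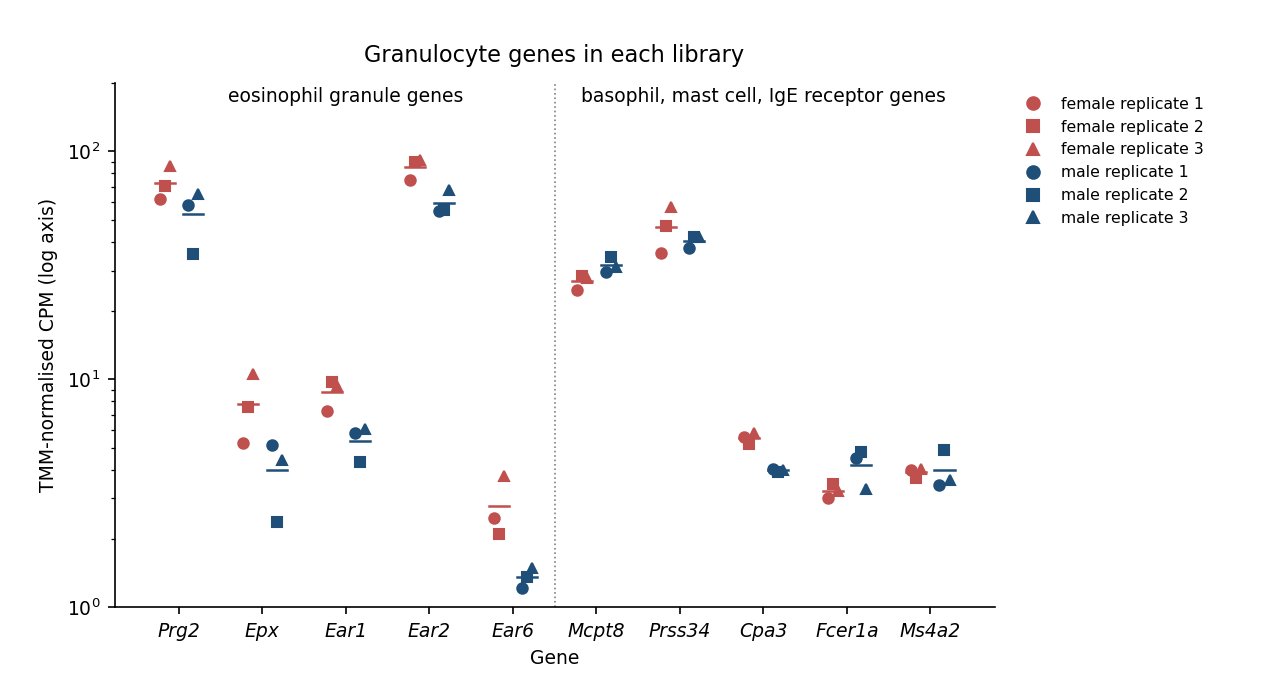
Level of each of the 10 genes in CPM (TMM-scaled, log axis) in each of the 3 female and 3 male libraries, 1 point per library and a line at the mean of each sex. Epx, Ear1, Ear2, Ear6 and Cpa3 show all 3 male points below all 3 female points, and Mcpt8 shows the opposite order.

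In males, 4 of the 5 eosinophil granule genes lay below females without overlap, whereas the basophil, mast cell and IgE receptor genes showed no common direction. None of the 10 genes passed edgeR's quasi-likelihood test at an adjusted p of 0.05, against 8 of 19480 genes tested (0.0411%). At an unadjusted p under 0.05, 5 of the 10 were lower in males (4.76% of all genes) and 0 were higher (5.03%). That count was 3 (Ear1, Ear2 and Ear6) without female replicate 3 or without male replicate 2. DESeq2 called 1 of the 10, Ear2, lower in males (0.735% of the genes it tested). The sexes did not overlap, with males lower, at 5 genes (7.29% of all genes), and with males higher at 1 gene (7.24%). The genes were chosen with earlier results known, so these shares are description only. Of the 10 log2 fold changes of males over females 7 were negative and 3 positive, with a median of -0.46 beside -0.00 over all genes tested. In bulk RNA, fewer cells of a type and less RNA per cell cannot be told apart.

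Prg2 (ENSMUSG00000027073, chromosome 2) encodes major basic protein, the toxic core of the eosinophil granule. Its level was 62.0, 70.2 and 86.2 CPM in female replicates 1 to 3, and 58.3, 35.6 and 65.2 CPM in male replicates 1 to 3. Male replicate 2 was the lowest of the 6, and male replicate 3 lay above female replicate 1, so the sexes overlapped. Means were 72.8 ± 12.3 CPM in females and 53.0 ± 15.5 CPM in males (SD, n = 3 each). The log2 fold change was -0.46 (SE 0.21, 95% interval -0.92 to 0.01) with an adjusted p of 0.514 (edgeR, Benjamini-Hochberg). It was -0.24 without male replicate 2 and -0.63 without male replicate 3.

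Epx (ENSMUSG00000052234, chromosome 11) encodes eosinophil peroxidase, which makes hypohalous acids in the granule. Females had 5.28, 7.59 and 10.5 CPM, and males 5.14, 2.37 and 4.43 CPM. The sexes did not overlap, although female replicate 1 and male replicate 1 were close. The means of 7.78 ± 2.59 CPM in females and 3.98 ± 1.44 CPM in males (SD, n = 3 each) differed 1.95-fold. The log2 fold change was -0.96 (SE 0.332, 95% interval -1.70 to -0.23) with an edgeR adjusted p of 0.373. It ranged from -1.19 to -0.69 when libraries were left out in turn. Prg2 and Epx had the widest spread of the members with Ear6: the highest library exceeded the lowest 2.42-fold for Prg2, 4.4-fold for Epx and 3.09-fold for Ear6.

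The Ear genes encode eosinophil-associated ribonucleases, a family that has expanded in rodents by repeated duplication on chromosome 14. Some copies are nearly identical, and this bears on how short reads can be assigned among them. The first 120 coding bases of 4 copies are shown for this reason, from GENCODE M39 transcripts on GRCm39, with capitals marking bases that differ from Ear2.
Ear2: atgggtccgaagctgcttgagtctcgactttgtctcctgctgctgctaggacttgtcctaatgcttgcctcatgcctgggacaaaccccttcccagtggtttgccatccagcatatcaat
Ear1: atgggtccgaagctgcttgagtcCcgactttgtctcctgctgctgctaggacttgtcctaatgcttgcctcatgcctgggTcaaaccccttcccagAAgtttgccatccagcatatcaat
Ear6: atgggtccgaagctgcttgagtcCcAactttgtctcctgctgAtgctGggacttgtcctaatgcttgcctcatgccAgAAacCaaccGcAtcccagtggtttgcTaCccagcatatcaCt
Ear10: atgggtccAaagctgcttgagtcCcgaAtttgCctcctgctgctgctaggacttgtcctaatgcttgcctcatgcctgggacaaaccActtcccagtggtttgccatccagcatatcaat
In this stretch Ear1 differed from Ear2 at 4 bases, Ear10 at 5 and Ear6 at 13. Over the whole coding sequence, Ear2 shared 95.1% of aligned positions with Ear1, 97% with Ear10 and 87.7% with Ear6.

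Of all 40-base windows of the Ear1 transcript, 68.1% occurred unchanged in a transcript of another gene, mainly Ear-ps9 (45.3%), Ear2 (32.3%), Gm63584 (26.1%), Ear-ps2 (22.3%) and Ear10 (20.8%). For Ear2 the share was 49.8%, mainly Ear1 (31.8%), Ear10 (29.8%), Gm63584 (23.6%), Ear-ps2 (19.9%) and Ear-ps9 (16.8%), and for Ear6 it was 5.49%. With 100-base windows the shares were 24.8%, 13.8% and 0%. The split of reads between Ear1, Ear2 and these relatives is therefore uncertain, whereas by exact match the Ear6 transcript differs along nearly all of its length. Prg2, Epx, Mcpt8, Prss34 and Fcer1a shared no window of either length with another gene. Cpa3 shared 9.46% of its 40-base windows with Gm31320, and Ms4a2 shared 3.18% with Ms4a4b.

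**Figure D2:**
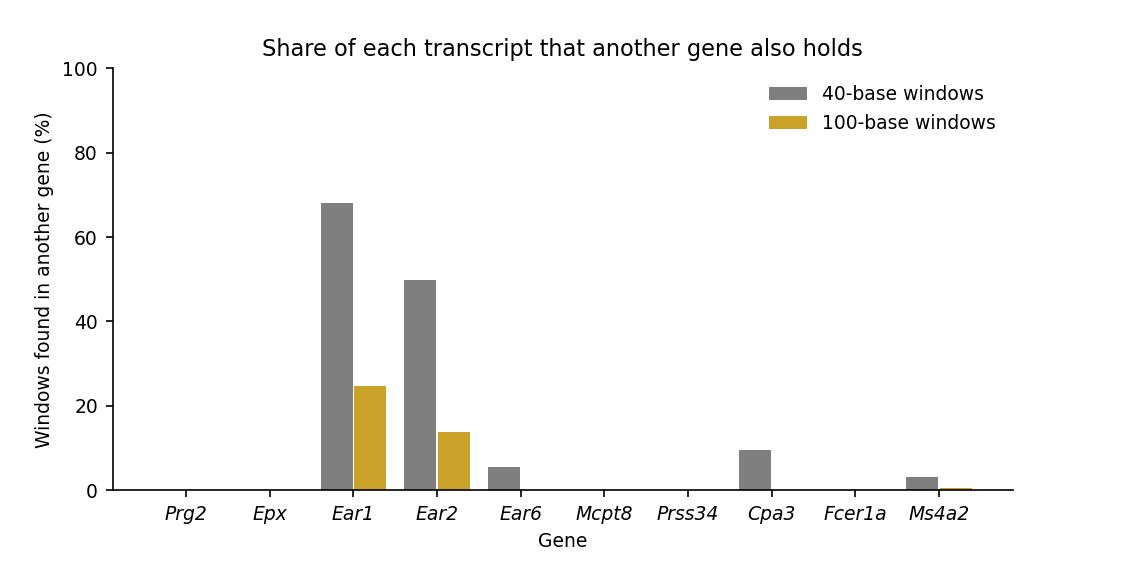
Share of 40-base and 100-base windows of each transcript, in percent, that occurs unchanged in a transcript of another gene. Ear1 and Ear2 stand out at 68.1% and 49.8% of 40-base windows, and 5 of the 10 genes are at 0%.

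Ear2 (ENSMUSG00000072596) was the most abundant Ear gene, with 75.0, 89.6 and 91.9 CPM in females and 54.8, 55.3 and 67.9 CPM in males. Every male library lay below every female library. Means were 85.5 ± 9.13 CPM and 59.3 ± 7.39 CPM (SD, n = 3 each), a log2 fold change of -0.53 (SE 0.132, 95% interval -0.82 to -0.23). Its edgeR adjusted p of 0.214 was the lowest of the 10 genes. DESeq2 gave the same fold change and an adjusted p of 0.0460, past the threshold that edgeR's adjusted p did not reach.

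Ear1 (ENSMUSG00000072601) had 7.27, 9.76 and 9.33 CPM in females and 5.79, 4.32 and 6.03 CPM in males, again without overlap. Its log2 fold change was -0.71 (SE 0.215, 95% interval -1.19 to -0.23), with an edgeR adjusted p of 0.313. Ear6 (ENSMUSG00000062148) had 2.47, 2.10 and 3.75 CPM in females and 1.21, 1.36 and 1.48 CPM in males. The 3 males were close together and all below the females, of which female replicate 3 was the highest. The log2 fold change of Ear6 was -1.03 (SE 0.318, 95% interval -1.74 to -0.33), with an edgeR adjusted p of 0.316. Ear6 shared only 3.56% of its 40-base windows with Ear2 and 2.82% with Ear1. Only exact matches were counted, and how many of its reads fit these relatives was not measured.

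Mcpt8 (ENSMUSG00000022157, chromosome 14) encodes a serine protease that is stored by mouse basophils and is used to mark them. It had 24.7, 28.3 and 27.9 CPM in females and 29.5, 34.3 and 31.0 CPM in males. All 3 males lay above all 3 females, by a narrow margin, and it was the only member in that order. Its log2 fold change was 0.23 (SE 0.122, 95% interval -0.04 to 0.50), with an edgeR adjusted p of 0.585.

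Prss34 (ENSMUSG00000056399, chromosome 17) encodes mast cell protease 11, which despite its name is a basophil tryptase. It had 35.8, 47.2 and 56.9 CPM in females and 37.7, 42.3 and 42.0 CPM in males. The males lay within the range of the females, which were more widely spread. Males over females gave a log2 fold change of -0.20 (SE 0.161, 95% interval -0.55 to 0.16), with an edgeR adjusted p of 0.739. It was -0.03 without female replicate 3 and -0.35 without female replicate 1.

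Cpa3 (ENSMUSG00000001865, chromosome 3) encodes carboxypeptidase A3, a granule protease of mast cells, basophils and their progenitors. It had 5.58, 5.18 and 5.79 CPM in females and 4.06, 3.90 and 3.98 CPM in males. The sexes did not overlap, and the libraries within each sex were close. The log2 fold change was -0.47 (SE 0.209, 95% interval -0.93 to -0.01), with an edgeR adjusted p of 0.499, and it stayed between -0.51 and -0.44 when libraries were left out in turn.

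Fcer1a (ENSMUSG00000005339, chromosome 1) encodes the chain that binds IgE. It had 3.01, 3.46 and 3.22 CPM in females and 4.5, 4.79 and 3.31 CPM in males. Male replicate 3 lay within the female range and the other two males above it. This gave a log2 fold change of 0.38 (SE 0.248, 95% interval -0.17 to 0.93), with an edgeR adjusted p of 0.657.

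Ms4a2 (ENSMUSG00000024680, chromosome 19) encodes the beta chain, which amplifies the signal. It had 3.98, 3.69 and 4.03 CPM in females and 3.42, 4.91 and 3.63 CPM in males, with male replicate 2 the highest and the sexes overlapping. The log2 fold change was 0.03 (SE 0.243, 95% interval -0.51 to 0.57), with an edgeR adjusted p of 0.981. It was -0.15 without male replicate 2 and -0.01 without female replicate 2, so its direction was not fixed by these data.

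Summed over the 5 eosinophil granule genes, levels were 152, 179 and 202 CPM in females and 125, 99.0 and 145 CPM in males, with no overlap. Ear2 and Prg2 made up most of this sum in every library, and Prg2 by itself overlapped between the sexes. The 5 basophil, mast cell and IgE receptor genes summed to 73.1, 87.8 and 97.8 CPM in females and 79.2, 90.1 and 83.9 CPM in males, and overlapped. The median log2 fold change was -0.71 over the first 5 genes and 0.03 over the other 5. With total counts alone in place of TMM, all 5 eosinophil granule genes were without overlap and lower in males, since Prg2 no longer overlapped (8.12% of all genes).

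A ratio of genes within a library does not depend on how libraries are scaled. The summed eosinophil granule genes over the summed basophil proteases Mcpt8 and Prss34 gave 2.51, 2.37 and 2.38 in females and 1.86, 1.29 and 1.99 in males. Every male ratio lay below every female ratio, with male replicate 2 the lowest. This ratio recombines levels already given above and is not a separate result. Mcpt8 over Prss34 was 0.691, 0.600 and 0.491 in females and 0.783, 0.811 and 0.738 in males, so the basophil proteases also differed in proportion without overlap. Epx over Prg2 was 0.0852, 0.108 and 0.121 in females and 0.0882, 0.0667 and 0.0679 in males, and overlapped.

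**Figure D3:**
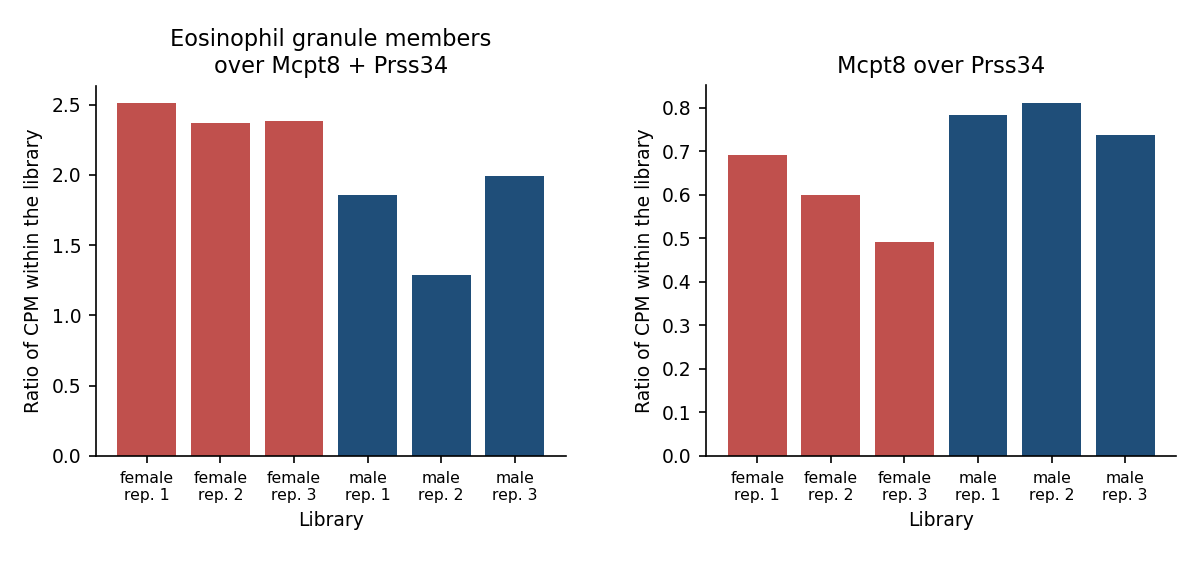
Ratio of CPM within each library, 1 bar per library, for eosinophil granule genes over Mcpt8 and Prss34 (left) and Mcpt8 over Prss34 (right). The ratio of eosinophil granule genes to Mcpt8 and Prss34 is 2.37 to 2.51 in females and 1.29 to 1.99 in males, and the second ratio is higher in all males.

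Across the 6 libraries, the eosinophil granule genes ran together. Pearson's r of log2 CPM over their 10 pairs was 0.69 to 0.95 (median 0.86), with Prg2 and Epx at 0.95 and Ear1 and Ear2 at 0.94. Since the split of reads between Ear1 and Ear2 is uncertain, their r may not be that of separate genes. The 10 pairs of the other 5 genes had r from -0.82 to 0.76 (median 0.12). Cpa3 followed Ear6 (r = 0.94) and ran against Mcpt8 (r = -0.82), whereas Mcpt8 and Fcer1a were at 0.76. Between both groups of genes the 25 pairs had r from -0.80 to 0.94 (median -0.42). These values describe 6 libraries in which the sexes themselves differ, and all points share the same libraries and scaling.

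Promoters were compared because the granule genes ran together and because GATA factors are known regulators of all 3 cell types. The 150 bases before the start of 9 genes were read from RefSeq on GRCm38.p6, and Prg2 was not matched. The hexamers AGATAA or AGATAG and also TGATAA or TGATAG were searched on both strands and are in capitals. They were found upstream of Prss34, Cpa3, Fcer1a and Ms4a2, beside 16.0% of all 32851 windows of the same length. The windows of Ear1 and Ear2 hold no match and are shown because, offset by a few bases, they were identical at all 148 positions they share.
Prss34 promoter (chr17:25298244-25298393, plus strand): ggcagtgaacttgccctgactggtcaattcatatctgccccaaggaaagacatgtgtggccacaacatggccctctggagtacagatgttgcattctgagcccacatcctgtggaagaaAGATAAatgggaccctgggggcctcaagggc
Cpa3 promoter (chr3:20242182-20242331, minus strand): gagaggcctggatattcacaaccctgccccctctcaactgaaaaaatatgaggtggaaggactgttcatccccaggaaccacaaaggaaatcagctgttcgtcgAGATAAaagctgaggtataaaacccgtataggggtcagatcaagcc
Fcer1a promoter (chr1:173227230-173227379, minus strand): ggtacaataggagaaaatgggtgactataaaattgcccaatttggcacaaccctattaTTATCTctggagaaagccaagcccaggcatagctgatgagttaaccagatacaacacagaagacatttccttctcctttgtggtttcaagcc
Ms4a2 promoter (chr19:11623720-11623869, minus strand): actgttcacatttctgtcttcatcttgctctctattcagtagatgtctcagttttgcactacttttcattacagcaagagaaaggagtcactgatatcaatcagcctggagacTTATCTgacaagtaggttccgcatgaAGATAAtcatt
Ear2 promoter (chr14:44102504-44102653, plus strand): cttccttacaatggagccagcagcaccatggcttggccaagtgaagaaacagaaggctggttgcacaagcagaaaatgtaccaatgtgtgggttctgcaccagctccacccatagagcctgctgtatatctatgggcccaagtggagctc
Ear1 promoter (chr14:43819640-43819789, minus strand): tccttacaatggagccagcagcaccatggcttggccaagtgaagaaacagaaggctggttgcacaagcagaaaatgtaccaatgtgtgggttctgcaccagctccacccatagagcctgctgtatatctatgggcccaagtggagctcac
The matches began 31 bases before the start in Prss34, 46 in Cpa3 and 92 in Fcer1a, and 37 and 11 in Ms4a2. A match is a description of the letters and not of a bound site. No match was present in the windows of Epx, Ear1, Ear2, Ear6 and Mcpt8.

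Beyond the 10 members, 33 related genes of these cells were examined, of which 32 were in the table and 24 passed the filter on low counts. None was called by edgeR, and at an unadjusted p under 0.05 there were 5 lower and 4 higher in males, beside 4.76% and 5.03% of all genes. DESeq2 called 2, Hdc and Csf2rb, both higher in males (1.28% of the genes it tested). The sexes did not overlap at 7 genes lower and 4 genes higher in males (7.29% and 7.24%), and the median log2 fold change was -0.23.

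Among eosinophil surface and granule genes, Ccr3, the eotaxin receptor, had 224, 211 and 234 CPM in females and 158, 135 and 199 CPM in males. Its sexes did not overlap (log2 fold change -0.44, SE 0.15, edgeR adjusted p 0.357). Ear10 showed the same order, at 2.77, 3.52 and 3.15 CPM in females and 1.92, 2.37 and 2.55 CPM in males. Prg3, which encodes a relative of major basic protein, overlapped between the sexes (log2 fold change -0.08, 95% interval -0.64 to 0.48). The other 3 tested genes of this group, Alox15, Siglecf and Il5ra, fell outside the naming rule and are given after their values were seen. Alox15, a lipoxygenase of eosinophils and macrophages, had 2.42, 2.38 and 4.17 CPM in females and 2.07, 1.46 and 1.39 CPM in males, without overlap (log2 fold change -0.86, 95% interval -1.60 to -0.13, edgeR adjusted p 0.424). Siglecf, a lectin used to sort eosinophils, had 2.23, 2.57 and 2.94 CPM in females and 3.06, 3.63 and 3.56 CPM in males, with the males higher (log2 fold change 0.41, 95% interval -0.16 to 0.97). Il5ra, the receptor for the main eosinophil growth factor, was at 0.10 (95% interval -0.29 to 0.49).

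The proteases that define mature mast cells were absent or scarce, and all 6 of the list are given, Mcpt1, Tpsab1 and Tpsb2 outside the naming rule. Mcpt1 and the tryptase Tpsab1 had 0 counts in all 6 libraries, as did Mrgprb2 (likewise outside it), a receptor of connective tissue mast cells. The chymases Mcpt4 and Cma1 had 1 to 7 and 4 to 15 counts per library, and the tryptase Tpsb2 had 0 to 17. Mcpt2, a mucosal mast cell chymase, reached 0.763, 0.757 and 1.17 CPM in females and 0.361, 0.203 and 0.654 CPM in males, without overlap (log2 fold change -1.14, SE 0.53, edgeR adjusted p 0.518). Of these 6 proteases only Mcpt2, at 10 to 55 counts per library, passed the filter on low counts. Cpa3, Fcer1a and Ms4a2 are expressed by basophils as well as mast cells, so the cells they came from cannot be told apart here.

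Fcer1g, the signalling chain that the IgE receptor shares with other Fc receptors of myeloid cells, was far more abundant than the other 2 chains, at 194 CPM per kb beside 3.72 for Fcer1a and 1.4 for Ms4a2. It did not separate the sexes (log2 fold change 0.03, 95% interval -0.27 to 0.32). The chains of the receptor for interleukin-3, a basophil growth factor, were ordered in opposite ways. Il3ra, the ligand-binding chain, had 18.5, 20.9 and 19.6 CPM in females and 14.7, 14.8 and 15 CPM in males (log2 fold change -0.41, SE 0.132, edgeR adjusted p 0.342). Csf2rb, the beta chain it shares with other cytokine receptors, had 76.1, 74.3 and 77.4 CPM in females and 101, 123 and 96.0 CPM in males (0.49, SE 0.122, edgeR adjusted p 0.208, DESeq2 adjusted p 0.0361). Csf2rb has a close paralogue in the mouse, and how many of its reads fit both was not measured. The other tested receptor genes fell outside the naming rule and are given after their values were seen. Cd200r3 was at 0.57 (95% interval 0.11 to 1.03), Kit at -0.42 (-0.83 to -0.01) and Il1rl1 at 0.31 (-0.31 to 0.92). Each of them overlapped between the sexes, and edgeR called none after adjustment.

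Hdc, which makes histamine, had 56.1, 65.5 and 62.3 CPM in females and 84.9, 134 and 79.0 CPM in males. All males lay above all females, with male replicate 2 the highest (log2 fold change 0.70, SE 0.188, edgeR adjusted p 0.248, DESeq2 adjusted p 0.0298). Hpgds, which makes prostaglandin D2, showed the opposite order, with 75.7, 92.6 and 81.9 CPM in females and 66.5, 58.1 and 72.1 CPM in males (-0.35, SE 0.127, edgeR adjusted p 0.398). Ltc4s, which makes leukotriene C4, overlapped (-0.44, 95% interval -1.12 to 0.24). The cytokine gene Il13, also outside the rule, had 0 counts in all libraries.

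Of the transcription factors, Cebpe, needed for granule formation in neutrophils and eosinophils, had 43.0, 58.7 and 57.1 CPM in females and 62.1, 72.7 and 72.6 CPM in males. Its males lay above its females (log2 fold change 0.38, SE 0.142, edgeR adjusted p 0.401). Cebpa (-0.25, 95% interval -0.59 to 0.08) and the GATA cofactor Zfpm1 (0.06, 95% interval -0.44 to 0.56) overlapped between the sexes. Outside the rule, Gata1 (-0.25, 95% interval -0.82 to 0.32) and Gata2 (-0.21, 95% interval -0.61 to 0.18) overlapped as well. Mitf, likewise outside it, lay lower in males without overlap (-0.36, 95% interval -0.73 to 0.00).

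**Figure D4:**
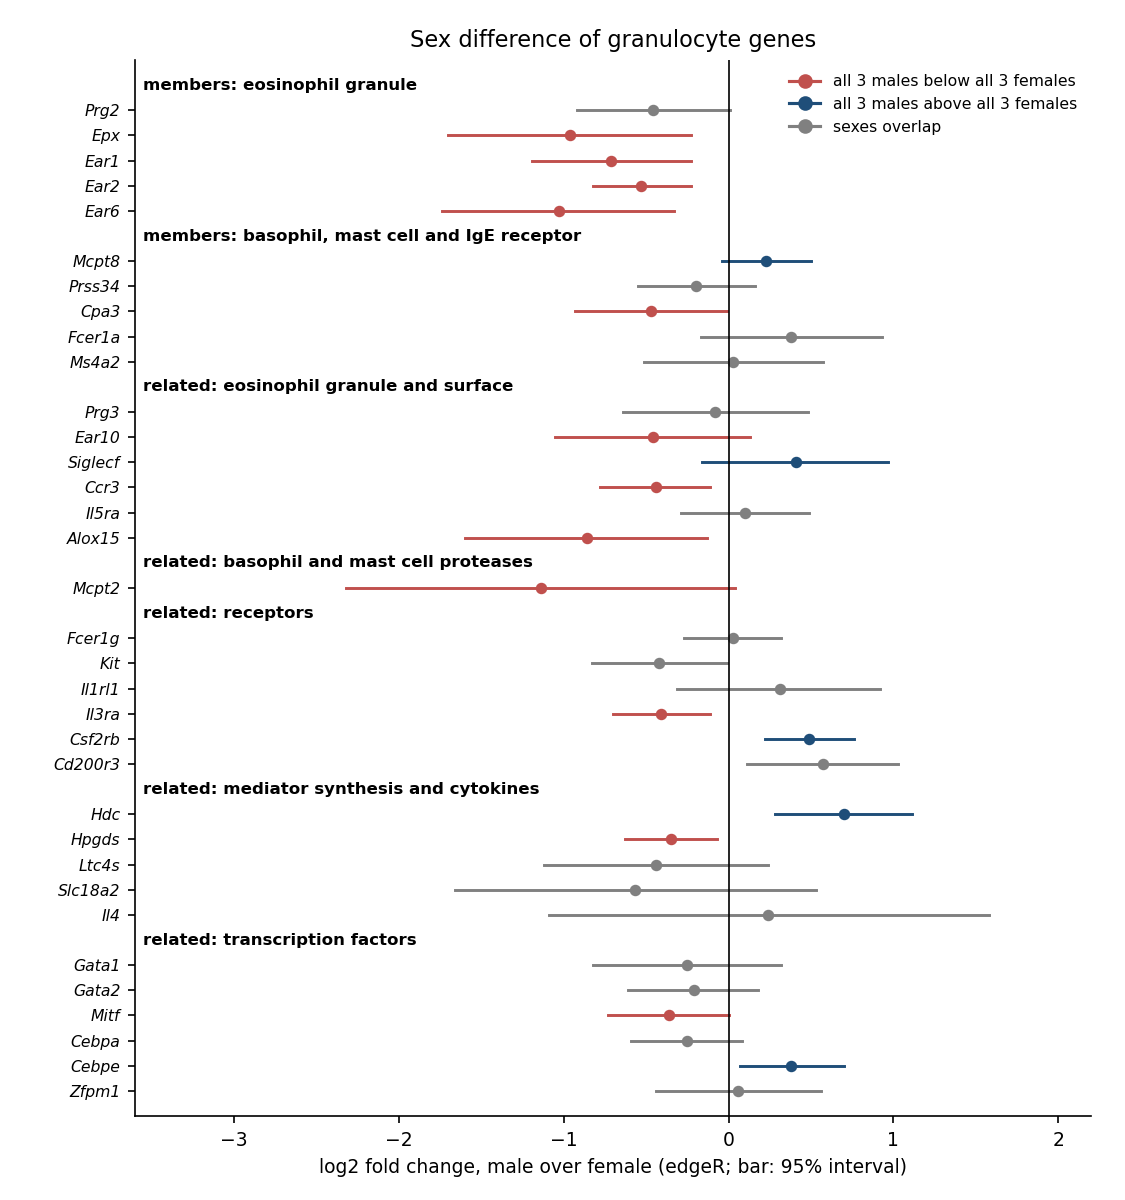
Log2 fold change of males over females (edgeR, points) with its 95% interval (bars) for the 10 members and the 24 related genes that passed the filter on low counts. Red marks genes with all males below all females, blue the reverse, and grey an overlap; Epx, Ear1, Ear2 and Ear6 lie between -1.03 and -0.53.

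Markers of other cell types also differed between the sexes and stand beside the results above. All 12 neutrophil markers lay higher in males without overlap (median log2 fold change 0.76). In edgeR 11 of the 12 were higher at an unadjusted p under 0.05 (5.03% of all genes) and 0 passed after adjustment, and DESeq2 called 9 (1.28%). Without overlap and higher in males were also 3 of 8 erythroid markers (median 0.38), beside 7.24% of all genes. Of 6 neutrophil primary granule and progenitor markers 5 overlapped between the sexes (median 0.18), with sums of 458 to 966 CPM in females and 386 to 769 CPM in males. Of 8 macrophage markers 6 lay lower in males without overlap, beside 7.29% of all genes, with summed levels of 4092 to 4410 CPM in females and 2816 to 3756 CPM in males (median -0.40). All 12 endothelial markers had negative log2 fold changes (median -0.99), and 4 lay lower in males without overlap. In edgeR 9 of the 12 were lower at an unadjusted p under 0.05 (4.76% of all genes) and 0 passed after adjustment, and DESeq2 called 4 (0.735%). T and NK cell markers summed to 31.9 to 41.9 CPM in females and 30.6 to 46.5 CPM in males, and overlapped. B cell markers summed to 2784 to 3198 CPM and 2802 to 3228 CPM (median -0.04). All 5 megakaryocyte markers (median -0.65) and all 6 stromal markers (median -0.48) had negative log2 fold changes, but each overlapped between the sexes. Megakaryocyte sums were 48.1 to 186 CPM in females and 36.4 to 95.6 CPM in males, and stromal sums 1403 to 2916 CPM and 1208 to 2326 CPM. No marker found in the table was at 0 in all libraries. Epx, Ear1, Ear2, Ear6 and Cpa3, but not Prg2, thus shared their order with the summed macrophage and endothelial markers. The related genes Ccr3, Ear10, Alox15, Mcpt2, Il3ra, Hpgds and Mitf did so too. Mcpt8, Siglecf, Csf2rb, Hdc and Cebpe shared their order with the neutrophil markers. The part of these other cell types in the differences was not tested.

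**Figure D5:**
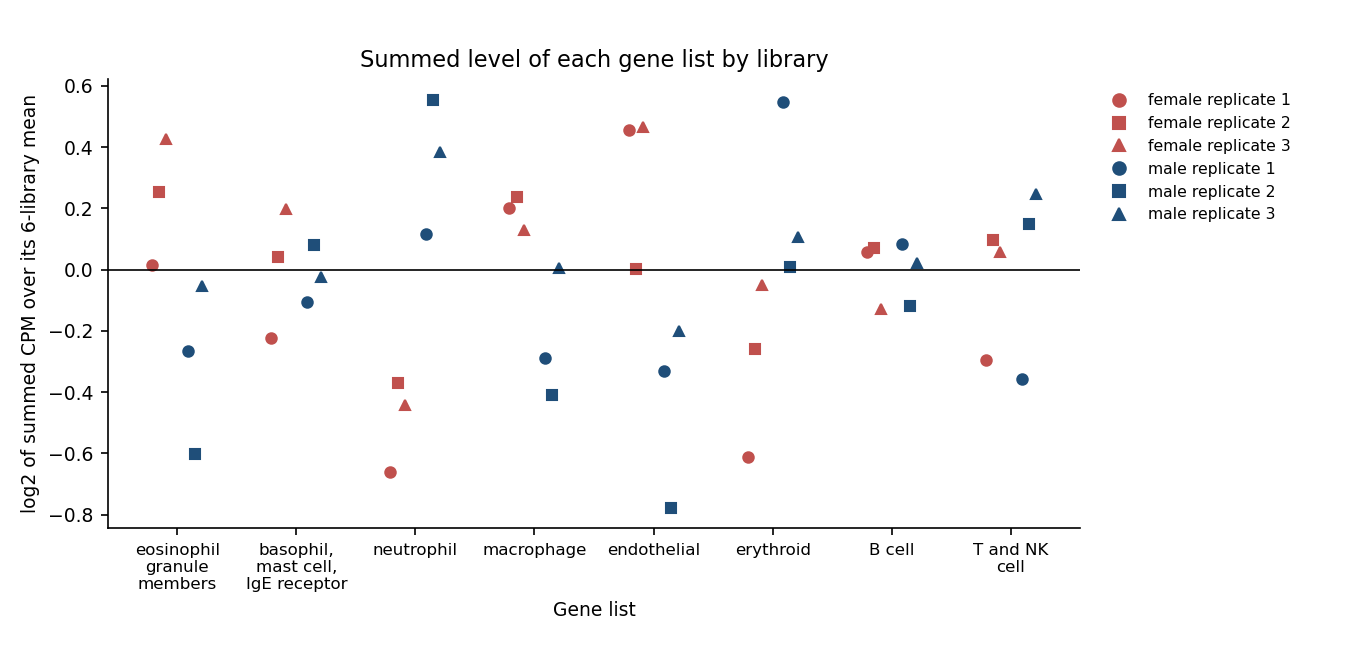
Log2 of the summed CPM of each gene list over its mean of the 6 libraries, with 1 point per female or male library. Neutrophil markers are higher in all males (32828 to 44518 CPM) than in all females (19156 to 23457 CPM), and the eosinophil granule genes are lower (99.0 to 145 against 152 to 202 CPM).

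Of 10472 protein-coding genes with a mean of at least 5 CPM, those most like the mean log2 CPM of the 5 eosinophil granule genes over the 6 libraries were Hdlbp (r = 0.995), Clic4 (0.994), Dusp28 (0.989), Slc40a1 (0.989) and Myo10 (0.987). None of them is an eosinophil marker. Their log2 fold changes were -0.26, -0.26, -0.47, -0.65 and -0.66, with edgeR adjusted p from 0.224 to 0.518. Slc40a1, the iron exporter ferroportin that macrophages carry, had 917, 975 and 1155 CPM in females and 662, 514 and 769 CPM in males. Those most like the mean of the other 5 genes were mt-Nd4l (0.974), Lgals9 (0.966), Shld1 (0.964), mt-Nd5 (0.959) and Synj2bp (0.957), whose log2 fold changes lay between -0.10 and 0.08.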

How the data were processed

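BEC RNA was sequenced in 6 libraries, 3 of each sex, for which the authors deposited 1 table of whole-number read counts per gene, not normalised. The submitters' processing notes name TopHat2 (2.0.11), featureCounts and the builds mm9 and NCBIM37, and the labels give poly-A RNA and 40-base paired reads; the study's methods instead name STAR, GRCm39, total RNA and 100-base reads. For the bones, the study's methods describe isolating BECs from femurs as well as tibiae. The strand setting and the annotation release are not given in the sources used here. Of 37991 identifiers, 31073 matched GENCODE M39 (96.2% of counts), which gave symbols and exon lengths.

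Sexes were compared with edgeR (4.0.16, R 4.3.3): TMM scaling, filterByExpr by sex, a robust quasi-likelihood fit of all 6 libraries without covariates, with p-values adjusted by Benjamini-Hochberg across 19480 genes, at a threshold of 0.05. Intervals are at 95%. The code was tested on simulated data. DESeq2 (1.42.0), other scalings and filters, no robust estimation, a replicate block and leaving out each library were the alternatives. Coding sequences were aligned with Biopython (1.88). Members, related genes and marker lists were chosen with earlier results of these data known. Named related genes were those called by edgeR and otherwise up to 3 of each role with the highest mean CPM per kb. Alox15, Siglecf, Il5ra, Tpsb2, Mcpt1, Tpsab1, Mrgprb2, Il13, Cd200r3, Kit, Il1rl1, Gata1, Gata2 and Mitf were named beside these after their values were seen. The genes most alike were the 5 with the highest Pearson correlation.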

Additional observations from a re-analysis of the deposited data

How the results depend on the processing

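The 10 log2 fold changes and the counts of members, related genes and all genes called were recomputed under 13 alternatives. Of the 169 resulting values, 155 kept their direction and side of the threshold or, for counts, stayed within 1.5 times. No member was called by edgeR with any scaling, filter or left-out library. DESeq2 called 1 member, Ear2 (log2 fold change -0.53, adjusted p 0.0460), and 2 related genes. The replicate block also called 1 member, Ear2 (-0.53, adjusted p 0.0248), and 2 related genes, and 428 of all genes. Same-numbered libraries had correlated deviations of 0.194, 0.0402 and 0.298, and male replicate 2 went best with female replicate 1 (0.131), so the numbers were not taken to pair the libraries. Over all genes, calls went from 8 to 14 with total counts alone, 98 with no filter and 354 with DESeq2, and from 5 (without female replicate 2) to 96 (without male replicate 3) when libraries were left out; the cause was not tested. Ms4a2 ranged from -0.15 (without male replicate 2), through -0.01 (without female replicate 2), to 0.13. Adjusted p over the alternatives ran from 0.0248 to 0.88 for Ear2, 0.0878 to 0.993 for Ear1, 0.101 to 1 for Epx and 0.105 to 0.943 for Ear6. Ear6 had the fewest counts of the members, 64 to 176 per library.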
